A study of Homo sapiens with 16 samples.

Results

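Hs578T control cells treated with TWEAK were compared with untreated Hs578T control cells through their H3K27ac peaks. The members of the comparison were 4 peak lists, 2 per arm, of the 16 in the series. Peaks of the 4 lists that shared at least 1 bp were merged, which gave 55475 regions, against 64545 when all 16 lists were merged. A region was called gained when both TWEAK lists and no untreated list held a peak, and lost in the reverse case. This gave 2863 gained regions (5.16% of the 55475) and 2691 lost regions (4.85%), and 35764 regions were retained, with a peak in all 4 lists. Hs578T is a triple-negative breast cancer (TNBC) cell line of mesenchymal character, and the control cells were the partner of cells from which the TWEAK receptor Fn14 had been deleted by CRISPR. Cells of every group were seeded in serum and starved in reduced-serum Opti-MEM for 8 h. TWEAK was then given at 10 ng/ml for 48 h and replenished after 24 h, and untreated cells received none. Chromatin was sheared to 200 to 500 bp and H3K27ac was immunoprecipitated. For reference, 4 lists from Hs578T Fn14 knockout (Fn14 KO) cells and 4 from control cells of a second TNBC line, MDA-MB-231, were read in the same way, each with 2 untreated and 2 TWEAK lists. The study's methods describe the cell line ChIP-seq replicates as biological, while the labels do not say how the lists of a group differ, and p-values measure the spread between these lists. Nor do the sources used here say whether the Fn14 KO cells were a single clone.

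TWEAK, the product of TNFSF12, is a ligand of the TNF superfamily that binds Fn14, the product of TNFRSF12A. Occupied Fn14 recruits TRAF adaptors and cIAP ubiquitin ligases, which releases the kinase NIK and leads to processing of the NFKB2 precursor into a subunit that enters the nucleus with RELB, and it can also activate canonical NF-κB and the JNK pathway, whose targets include AP-1 factors. H3K27ac marks active enhancers and promoters. NF-κB dimers bind the κB motif and AP-1 dimers of JUN and FOS proteins bind TGANTCA, so both motifs were looked for in the DNA under the peaks.

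The DNA of 7 regions to which the results return is shown as windows of 200 bp around a motif match, read 5′ to 3′ on the plus strand of hg38 and named by the nearest protein-coding start site. MRPS27 and ERRFI1 are among the strongest gained regions that hold a κB match in the central 500 bp, and TTC7B and SPARC are the strongest lost regions that hold an AP-1 match there. The windows at INHBA, TNFAIP3 and CXCL8 come from the strongest gained region of each gene with a κB match. All were thus chosen for their match. Capitals mark each match to the 10-letter κB consensus, on either strand, or to the AP-1 letters TGANTCA.
MRPS27 gained, chr5:72402672-72402871: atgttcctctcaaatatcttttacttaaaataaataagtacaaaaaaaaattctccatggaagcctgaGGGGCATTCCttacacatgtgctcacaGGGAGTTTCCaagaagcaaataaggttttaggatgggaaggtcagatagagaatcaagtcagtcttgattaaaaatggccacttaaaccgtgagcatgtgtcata
ERRFI1 gained, chr1:8148029-8148228: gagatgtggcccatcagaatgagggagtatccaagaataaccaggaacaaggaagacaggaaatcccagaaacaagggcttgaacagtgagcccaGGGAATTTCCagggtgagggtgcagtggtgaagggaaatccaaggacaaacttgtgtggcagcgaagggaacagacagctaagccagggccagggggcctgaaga
INHBA gained, chr7:41870547-41870746: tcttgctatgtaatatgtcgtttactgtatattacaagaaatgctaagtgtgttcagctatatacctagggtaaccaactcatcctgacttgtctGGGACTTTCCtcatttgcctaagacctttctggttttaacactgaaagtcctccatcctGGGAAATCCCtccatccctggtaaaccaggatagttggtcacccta
TNFAIP3 gained, chr6:137927767-137927966: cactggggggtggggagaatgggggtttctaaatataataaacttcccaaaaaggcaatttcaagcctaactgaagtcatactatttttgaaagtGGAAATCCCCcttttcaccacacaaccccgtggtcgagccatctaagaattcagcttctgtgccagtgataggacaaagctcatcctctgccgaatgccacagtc
CXCL8 gained, chr4:73722117-73722316: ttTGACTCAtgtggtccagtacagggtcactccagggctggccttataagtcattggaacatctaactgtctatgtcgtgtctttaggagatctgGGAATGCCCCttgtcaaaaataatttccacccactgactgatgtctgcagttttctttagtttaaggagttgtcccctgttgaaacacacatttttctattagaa
TTC7B lost, chr14:90513161-90513360: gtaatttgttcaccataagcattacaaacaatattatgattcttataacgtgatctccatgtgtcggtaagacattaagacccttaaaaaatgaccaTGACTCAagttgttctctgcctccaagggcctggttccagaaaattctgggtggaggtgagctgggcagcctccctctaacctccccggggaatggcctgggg
SPARC lost, chr5:151694127-151694326: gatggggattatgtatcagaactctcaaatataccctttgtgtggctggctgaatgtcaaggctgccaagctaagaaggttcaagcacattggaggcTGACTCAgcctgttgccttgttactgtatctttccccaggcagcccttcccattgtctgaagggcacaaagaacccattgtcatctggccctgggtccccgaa

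The gained windows at MRPS27 and INHBA held 2 κB matches each. That at CXCL8, the gene of the neutrophil chemokine IL-8, held a κB match and an AP-1 match. The lost region at TTC7B also holds a κB match, outside the window. A match is a description of the letters and not a binding site.

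The presence patterns of the 4 lists put gained and lost regions in context. The split by treatment held 5554 regions (10.0% of all). The other ways of dividing the lists into pairs held far fewer. The split by replicate number held 675 regions (1.22%), and the split with crossed numbers held 732 (1.32%). A further 4554 regions (8.21%) had a peak in 3 lists and 8196 (14.8%) in a single list. Just outside the definition of gained were 1407 regions with a peak in both TWEAK lists and untreated replicate 1, and 697 with both TWEAK lists and untreated replicate 2. Just outside the definition of lost were 1886 regions missing from TWEAK replicate 1 alone and 564 missing from TWEAK replicate 2 alone. With 1 list left out, so that the other list of its arm stood alone, gained regions numbered 4887 without TWEAK replicate 1. Lost regions numbered 4797 without untreated replicate 1, 5562 without untreated replicate 2 and 4577 without TWEAK replicate 2.

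**Figure D1:**
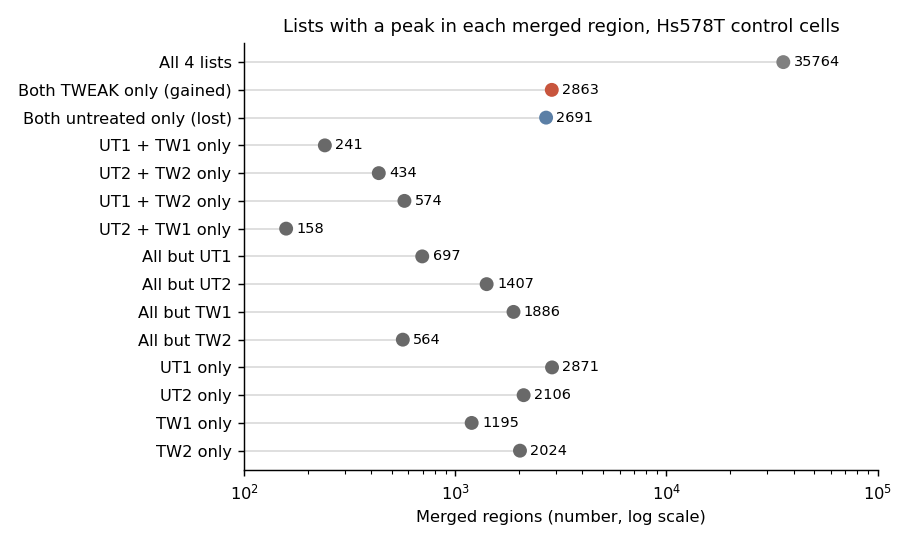
Number of merged regions (log axis) for each presence pattern of the 4 Hs578T control lists, UT1 and UT2 untreated replicates 1 and 2, TW1 and TW2 TWEAK replicates 1 and 2. The 2863 gained and 2691 lost regions lie above every other pattern of 2 lists, the largest of which holds 574 regions.

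The lists themselves were of similar size. Peak numbers were 47197 and 45523 in untreated replicates 1 and 2 and 44431 and 46989 in TWEAK replicates 1 and 2, and the groups overlapped (exact two-sided permutation p = 0.667). Median peak width was 1345 and 1363 bp untreated and 1292 and 1301 bp with TWEAK, without overlap, and exact permutation p = 0.333, the smallest that 2 lists against 2 allow. The lists hold peaks and no reads, so the depth of the libraries is unknown, and a missing peak means that a region was below the caller's threshold and not that the mark was absent. Because whole cultures were assayed, fewer cells with the mark and less mark per cell cannot be told apart. A peak within 2 kb of the start site was present in all 4 lists for 6 of 7 mesenchymal markers, VIM, ZEB1, AXL, CAV1, CD44 and FN1, and in none for CDH2. ESR1, PGR and FOXA1, and the 5 immune markers, had none in any list, whereas the epithelial markers EPCAM, GRHL2 and TP63, the luminal GATA3 and KRT19 and the endothelial PECAM1 had a start-site peak in all 4 lists, CDH5 in 3, and KDR and TIE1 in none.

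Gained and lost regions lay mostly away from gene starts. A protein-coding start site was within 2 kb for 6.50% of gained regions, and 39.9% lay in introns, 45.7% between genes and 7.93% in exons, and the median distance to a start site was 34.8 kb. Of the lost regions, 10.9% were near a start site, and the median distance was 27.4 kb. Retained regions were near a start site in 33.2% of cases and all merged regions in 24.8%. Regions of the remaining presence patterns were near one in 10.1% of cases, close to the lost regions. Median width was 862 bp for gained, 866 bp for lost and 1996 bp for retained regions, and its part in these shares was not tested. Most gained and lost peaks were weak. Fold enrichment, the peak signal over the local background as the peak caller reports it, had a median of 3.46 and 3.49 in the 2 TWEAK lists over the gained regions and of 3.34 and 3.18 in the 2 untreated lists over the lost regions, while medians over the retained regions were between 6.26 and 6.77. These values belong to the same peaks that defined the regions and are given as a description. By the lower −log10 q of the 2 lists, 180 gained regions (6.29%) reached 10 or more and the highest was 61.0, against 15 lost regions (0.557%) with a highest value of 24.3. Values under 2 were found at 975 gained (34.1%) and 1255 lost regions (46.6%), and the weakest stood at 1.01 and 1.03.

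The 12 strongest gained regions, by the lower −log10 q of the 2 TWEAK lists, had fold enrichment between 9.15 and 20.2 in the TWEAK lists and no peak in either untreated list. The strongest lay 57.3 kb upstream of ZNF644, which encodes a zinc finger protein, at chr1:91079528-91081753, with fold enrichment of 17.4 and 16.9. A region 43.3 kb upstream of INO80, the ATPase of a chromatin remodelling complex, reached 17.0 and 20.2. The region 120 kb upstream of ERRFI1, a feedback inhibitor of EGFR, at chr1:8146744-8149040 reached 13.9 and 14.3. The window printed above comes from it. MRPS27, which encodes a mitochondrial ribosomal protein, had a region 80.0 kb upstream at chr5:72401715-72403970 with 12 and 13.3. A pair of regions lay in NAV2, with 13.2 and 12.6 at the stronger and 12.8 and 13.5 at the weaker, and the other regions were nearest to CCDC81, ADAMDEC1, MAML2, DENND2D, SIPA1L1 and TRIO. All 12 also had a peak in each MDA-MB-231 control list with TWEAK, lists that the choice of regions did not use. Of these, SIPA1L1 also had a peak in both untreated MDA-MB-231 lists, and ADAMDEC1, ERRFI1 and MAML2 in 1. MRPS27, ADAMDEC1, ERRFI1 and TRIO had a peak in no Fn14 KO list. The others had one in some Fn14 KO lists. The NAV2 regions had it in 3 and 2, ZNF644, INO80 and SIPA1L1 in 2, and CCDC81, MAML2 and DENND2D in 1. Over all gained regions, 77.6% had a peak in no Fn14 KO list.

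The 12 strongest lost regions had fold enrichment between 6.19 and 11.2 in the untreated lists and no peak in either TWEAK list. The strongest lay 96.1 kb downstream of the start of TTC7B, a scaffold of a phosphatidylinositol kinase complex, at chr14:90512170-90514663, with 11.2 and 10.3. LEFTY1, whose product antagonises Nodal signalling, lost a region 1.38 kb upstream of its start with 9.37 and 7.99. A region 8.97 kb upstream of the transcription factor gene PAX8 had 9.56 and 8.07. SPARC, which encodes a matricellular protein, lost a region 6.33 kb upstream with 7.43 and 8.86, and a weaker one at its start, but also had 2 gained regions and 1 that rose within the gene. The rest were nearest to VLDLR, TTLL2, AK9, SLC25A26, GAS7, UNC93A, LCTL and CDC42BPA. All 12 had a peak in all 4 Fn14 KO lists and in both untreated MDA-MB-231 lists. In the MDA-MB-231 lists with TWEAK, 6 of the 12 still had a peak, CDC42BPA in both lists and LEFTY1, SLC25A26, GAS7, UNC93A and LCTL in 1.

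κB matches were more frequent in gained than in lost regions. In the central 500 bp, a κB match was found in 25.6% of gained regions (95% exact binomial interval 24.0 to 27.3) and 4.72% of lost regions (3.95 to 5.59), beside 8.77% of all 55475 regions. A stricter κB consensus, a subset of the first, was found in 211 gained regions (7.37%), 5 lost regions (0.186%) and 694 of all regions (1.25%). AP-1 matches were common in both, in 44% of gained and 40.1% of lost regions, against 36.0% of all regions and 43.3% of all regions away from start sites. Intervals here cover counting error over regions, which are not independent samples. Single κB spellings were ranked by their count in gained regions. The first, GGGACTTTCC, occurred in 81 gained regions and 1 lost region of 220 that held it, so that 36.8% of its carriers were gained. Among the most frequent spellings, the gained share ran from 11.8% for GGGAGTTCCC to 41.5% for GGGGAATTCC, which occurred in 71 gained regions of 171. Of all 55475 regions, 5.16% were gained.

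The κB share grew with peak strength. It was 18.8% in the 975 gained regions whose lower −log10 q was under 2, 24.3% between 2 and 4, 32.9% between 4 and 8, 40.1% between 8 and 16 and 52.8% in the 72 regions at 16 or above. The AP-1 share did not rise in that way and was 42.6%, 47.1%, 43.8%, 39.0% and 27.8% over the same bins. In the lost regions the κB share was 4.46%, 4.97% and 5.05% over the bins up to a −log10 q of 8. Both strands were searched for 13 motifs in all, the stricter κB consensus included. The other motifs differed less between gained and lost regions. The GATA letters AGATAA were in 32.6% of gained, 24.9% of lost and 24.5% of all regions. The RUNX letters TGTGGT were in 34%, 40.4% and 32.2%, in the same order. The E-box of ZEB and SNAIL factors, CAGGTG, was in 29.9%, 35.6% and 32.2% of these classes. For the SP letters GGGCGG the shares were 9.43%, 14.6% and 23.1%. For the NF-Y letters CCAAT they were 51.0%, 44.6% and 46.7%. The TEAD letters GGAATG, which overlap some κB spellings, were in 31.1%, 32.3% and 28.8%. The SMAD letters CAGACA were in 32.6%, 32.9% and 30.1% of gained, lost and all regions. The C/EBP letters TTGCNNAA were in 26.5%, 24.5% and 22.2% of the same classes. The FOX letters TGTTTAC were in 11% of gained and 11% of lost regions and 8.69% of all. The CRE letters TGACGTCA were in 0.21%, 0.595% and 0.701%. Median GC content of the 500 bp was 42.6% in gained, 45.8% in lost and 46.0% in all regions, and its part in these shares was not tested.

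**Figure D2:**
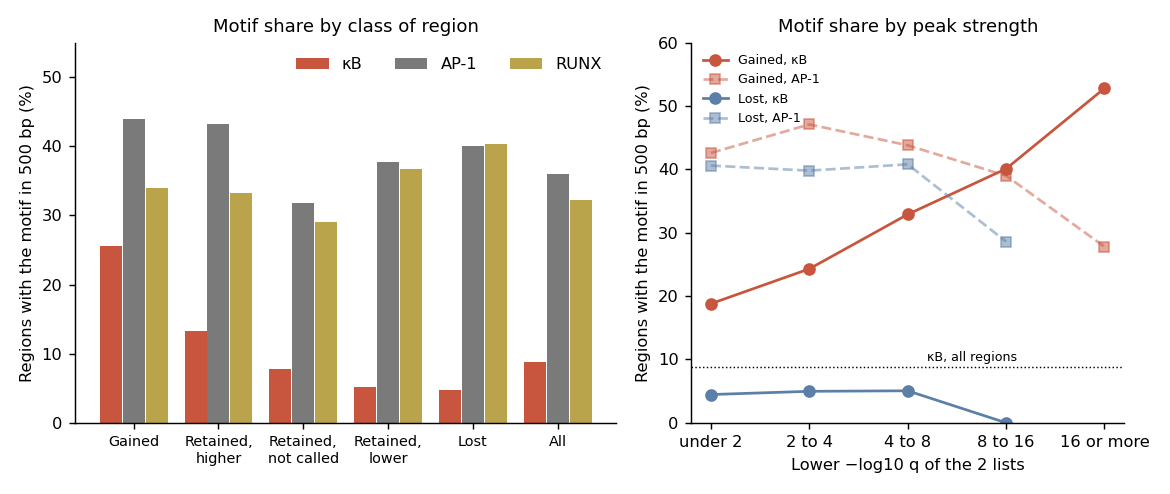
Left, percent of regions with a κB, AP-1 or RUNX match in the central 500 bp, for gained, lost, retained and all regions. Right, percent with a κB or AP-1 match by the lower −log10 q of the 2 lists that hold the peak, where the κB share of gained regions goes from 18.8% to 52.8%.

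Several genes collected many gained regions. NAMPT, which encodes the rate-limiting enzyme of the NAD salvage pathway, was nearest to 25 regions, of which 7 were gained and 7 of the retained regions rose. The length under peaks over these regions was 25 and 23 kb in the untreated lists and 55 and 50.3 kb in the TWEAK lists, without overlap. A gained region adds length to the TWEAK lists alone by definition. For genes named by such regions, the separation of the arms is thus a description. In the Fn14 KO lists the length at NAMPT was 23.2 and 21.6 kb untreated and 21.3 and 22.6 kb with TWEAK. The strongest gained region, at chr7:106357497-106359052 and 71.5 kb upstream of the start site, had fold enrichment of 5.21 and 6.04, and had a peak in no Fn14 KO list and in both MDA-MB-231 TWEAK lists. Others lay 79.3 and 106 kb upstream, and 4 lay between 15 and 34 kb from the start site on either side, with values between 2.61 and 3.63.

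The retained regions that rose at NAMPT were all upstream, between 26.3 and 173 kb from the start site. The region at chr7:106376827-106379161 had fold enrichment of 5.41 and 4.56 untreated and 12.5 and 13.6 with TWEAK, a log2 change of 1.35 (SE 0.133, limma adjusted p = 4.09e-05). The change was 1.27 at the region 173 kb upstream and 1.10 at that 138 kb upstream. Relative to this, the region over the NAMPT start site, chr7:106277421-106287371, went from 27.9 and 24.1 to 21.4 and 17.8, a fall of its mean fold enrichment by 0.45 on the log2 scale (SE 0.147, limma adjusted p = 0.0418). The peaks there also widened, from 4741 and 4841 bp to 9514 and 9951 bp, and fold enrichment times length gave a rise of 0.66 in its place (adjusted p = 0.0975). The fall at the start site also missed the threshold without centring of the lists (-0.41, limma adjusted p = 0.0658), without TWEAK replicate 2 (-0.29, 0.328) and without untreated replicate 1 (-0.38, 0.0978). Over their whole length, 0 of the 7 gained NAMPT regions and 3 of the 7 that rose held a κB match. The κB shares over all regions were counted in central windows and not over whole regions, so they are an unlike measure.

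INHBA, whose product forms activin A, was nearest to 28 regions. Of these, 9 were gained and 6 retained regions rose, and none was lost or fell. Its length under peaks was 29.1 and 26.2 kb untreated and 42.1 and 41.8 kb with TWEAK. Most of these regions lay 461 to 781 kb downstream of the start site. The largest rise there was 1.15 at chr7:41222234-41226005 (5.92 and 5.37 untreated, 12.8 and 12.9 with TWEAK, limma adjusted p = 9.81e-05). The region over the INHBA start site changed by 0.11 (adjusted p = 0.59). Over their whole length, 5 of the 9 gained INHBA regions held a κB match, a count that is likewise not comparable with the shares in central windows.

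ATP2B1, a plasma membrane calcium pump gene, had 6 gained and 11 that rose of 30 regions. Its length under peaks was 32.0 and 32.5 kb untreated and 48.5 and 47.7 kb with TWEAK. ZEB2, a repressor of epithelial genes, had 5 gained and 6 that rose of 39 regions (32.0 and 31.1 kb against 39.1 and 42.2 kb). The strongest gained ZEB2 region lay 117 kb upstream with fold enrichment of 10.9 and 11.1. RGMB, which encodes a BMP co-receptor, had 5 gained and 8 that rose of 22 regions (33.2 and 31.2 kb against 41.4 and 42.3 kb). None of these genes, ATP2B1, ZEB2 and RGMB, was nearest to a lost region or to a retained region that fell. PCDH7 had 6 gained and 1 lost of 28 regions. Among the genes with 5 gained, PTPRM also had 3 lost and 1 that fell, TBC1D4 and PDE4D had 1 lost each, and LRP1B had none. PTPRM and LRP1B were nearest to 28 regions each, TBC1D4 to 21 and PDE4D to 33. Over all regions with a nearest gene, 5.15% were gained and 4.85% lost, and the median gene had 2 regions. A gene with more regions has more to gain or lose, so these counts are a description. Of 14348 protein-coding genes nearest to at least 1 region, 2160 (15.1%) had a gained region and 2087 (14.5%) a lost region, 472 had both, and 143 had 3 or more gained.

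Among genes that lost regions, ZMIZ1, a coactivator related to the PIAS family, led with 9 lost of 34 regions. It had no gained region, 5 retained regions that fell and 2 that rose. Its length under peaks was 84.1 and 87.1 kb untreated and 51.5 and 58.6 kb with TWEAK, and stayed between 73.6 and 80.0 kb in the 4 Fn14 KO lists. AOPEP, an aminopeptidase gene, had 6 lost and 11 that fell of 41 regions, and went from 145 and 158 kb to 97.0 and 112 kb. DUSP4, a phosphatase of MAP kinases, was nearest to 28 regions. It had 5 lost and 6 that fell, with 1 gained and 1 that rose (86.8 and 94.8 kb against 72.9 and 75.3 kb). TIAM1, an activator of Rac, had 5 lost and 5 that fell of 23 regions (31.2 and 31.7 kb against 16.7 and 21.5 kb). At all of these the TWEAK lists were below both untreated lists. The choice of genes by their lost regions favours this, since a lost region has no length in the TWEAK lists. IQCJ-SCHIP1, SNTB1, SOX4, SARAF, TLE3 and TTC39C also had 5 lost regions each, and were nearest to between 11 and 26 regions. Gained regions had another gained region within 50 kb in 21.6% of cases, and lost regions another lost region in 24.3%. The matching share for other regions was not counted, so whether these shares exceed it was not tested.

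**Figure D3:**
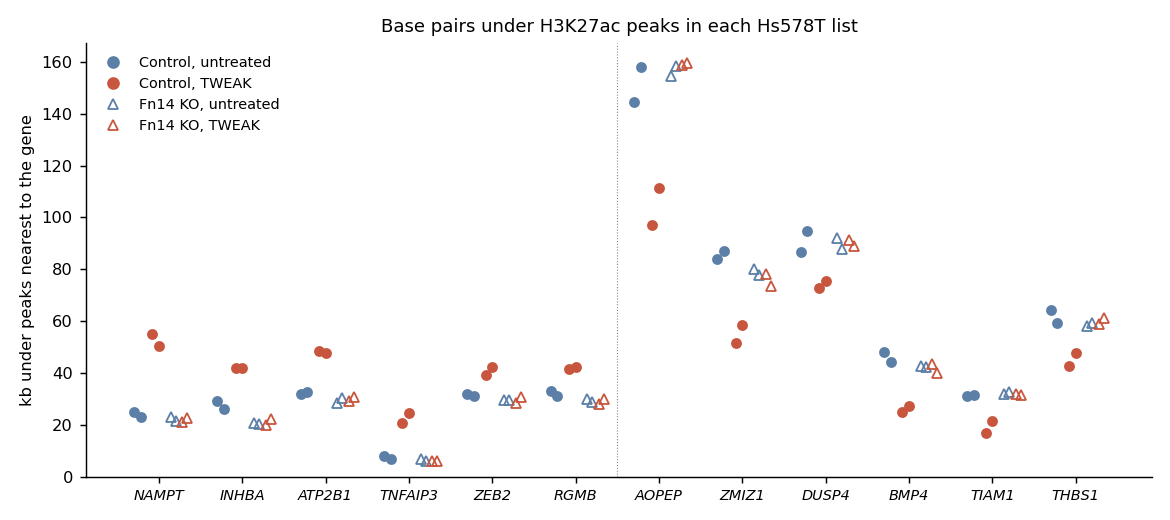
Length under peaks (kb) over the regions nearest to 12 genes, as points per list, for untreated and TWEAK lists of Hs578T control cells (circles) and Fn14 KO cells (triangles). At NAMPT the control TWEAK lists (55 and 50.3 kb) stand above the control untreated lists (25 and 23 kb), and at ZMIZ1 they stand below (51.5 and 58.6 against 84.1 and 87.1 kb). Gained and lost regions are part of the length, so the separation of the control arms is in part set by their definition.

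Signal at the 35764 retained regions was compared with limma on the log2 of the mean fold enrichment, centred on the median of each list. With 2 lists per arm, 4598 regions (12.9%) rose and 4052 (11.3%) fell at an adjusted p under 0.05. Without TWEAK replicate 1 the counts were 2627 and 2069, without TWEAK replicate 2 they were 2846 and 2723, and with fold enrichment times length in place of the mean they were 2513 and 2157. The median change was 0.60 among those that rose and -0.60 among those that fell, and 605 and 337 changed by 1 or more on the log2 scale. Across regions the lists correlated at 0.957 within the untreated arm, 0.973 within the TWEAK arm and 0.860 to 0.872 between arms, a description over regions, which are not independent replicates. Retained regions that rose were near a start site in 15.5% of cases, those that fell in 19.3% and those not called in 38.2%. They also tended to share a nearest gene with gained or lost regions of the same direction. A gained region had the same nearest gene for 41.3% of regions that rose, 25.7% of regions that fell and 26.3% of regions not called. For a lost region the shares were 25.2%, 40.7% and 26%. A κB match was found in 13.3% of regions that rose, 5.11% of those that fell and 7.83% of those not called, and in 31.9% of the 160 that rose by 1.5 or more.

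The largest rise was in an intron of GPR107, a membrane protein gene, at chr9:130071542-130074864, where fold enrichment went from 4.06 and 4.39 to 33.6 and 33.1 (log2 change 2.94, SE 0.135, limma adjusted p = 1.2e-06). A region near SELPLG, the gene of the selectin ligand PSGL-1, went from 4.04 and 3.09 to 28.2 and 26.9, a change of 2.92. A region 72.1 kb upstream of TBX2, a T-box repressor, went from 3.43 and 3.95 to 26.9 and 26.7, a change of 2.82. Both TWEAK lists were far above both untreated lists at these regions. IFNAR2, a chain of the type I interferon receptor, had a region 0.163 kb upstream of its start that went from 3.52 and 3.61 to 19.0 and 19.8 (2.40). At the start of IL23A, a subunit of interleukin-23, values went from 3.57 and 3.05 to 17.6 and 16.6 (2.33). TNFSF10, the gene of the death ligand TRAIL, had a region 82.0 kb upstream that went from 4.16 and 3.02 to 16.7 and 20.1 (2.32). ARNT2, VNN1, RFX8 and ZC3H7B completed the 10 largest, with changes between 2.48 and 2.65.

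The largest fall was in an intron of PLEKHA7, an adherens junction protein gene, at chr11:16980805-16983195, where fold enrichment went from 12.6 and 11.1 to 3.10 and 2.90 (log2 change -2.03, SE 0.134, limma adjusted p = 3.11e-06). A region 50.2 kb downstream of INHBB, which encodes the other activin chain, went from 20.1 and 18.6 to 4.57 and 6.78 (-1.84). At a start site of NFATC2, a calcium-regulated transcription factor, values went from 15.2 and 11.1 to 3.96 and 4.49 (-1.67). The untreated lists were above both TWEAK lists at each of these. PLEKHG6 (-1.88), FOXL3 (-1.80), SH3TC2 (-1.75), FRMD4A (-1.72), MAP4 (-1.69), EDIL3 (-1.68) and FANK1 (-1.64) made up the rest. The regions with the largest rises and falls were chosen for the size of their change. The separation of their lists, and their stability in refits on the same lists, follow in part from that choice. These 20 regions kept their direction and their call in all 215 refits under other settings.

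The gene lists below were read through the regions nearest to their members, beside the shares over all regions, 5.15% gained and 4.85% lost of those with a nearest gene, and 12.9% that rose and 11.3% that fell of the retained ones. Shares are per region because genes in wide intergenic stretches have more regions to gain or lose. A list's counts are a description. They depend on how genes are assigned. By any start site within 50 kb, neighbouring genes can share a region. A gained region was then found for 62.5% of chemokine genes, 44.4% of adhesion genes and 40% of NF-κB inhibitor genes, against 15% of all genes. For TNF superfamily, apoptosis and TGF-β genes the gained share was 15.6%, 10.7% and 7.89%. In the same order of lists, the lost shares were 12.5%, 22.2%, 13.3%, 9.38%, 14.3% and 34.2%, against 16.9% of all genes. The epithelial-mesenchymal transition list had 14.3% gained and 42.9% lost.

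Neither the receptor gene nor the ligand gene passed the test at its start. At the start of TNFRSF12A, which encodes Fn14, chr16:3019890-3024891, fold enrichment was 34 and 32.6 untreated and 33.3 and 35.2 with TWEAK, and the groups overlapped (log2 change -0.00, SE 0.128, limma adjusted p = 0.989). At the start of TNFSF12 it was 3.88 and 4.0 untreated and 3.70 and 3.32 with TWEAK (-0.21, limma adjusted p = 0.288). Over the TNF superfamily, 11 of 117 regions were gained (9.40%) and 2 lost (1.71%), and of 73 retained regions 14 rose and 8 fell. TNFRSF9, a costimulatory receptor, had 2 gained regions, the stronger with 5.60 and 5.94, and its start region rose by 0.93 (3.26 and 3.76 to 6.99 and 6.75). TNFSF15 gained a peak at its start with 4.2 and 5.15. TNFRSF11B, the decoy receptor osteoprotegerin, went the other way with 1 lost region and 4 that fell.

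Of the adaptors, ligases and kinases between receptor and NF-κB, 11 of 128 regions were gained (8.59%) and 5 lost (3.91%), and 15 of 83 retained regions rose and 7 fell. At the start of TRAF2, an adaptor that binds Fn14, fold enrichment went from 7.02 and 5.47 to 14 and 15 (1.18, limma adjusted p = 0.000144), and a second TRAF2 region rose by 0.86. The TRAF3 start region, at the gene of an adaptor that holds NIK for degradation, went from 5.40 and 5.47 to 9.41 and 9.10 (0.72). BIRC3, which encodes cIAP2, had 3 regions that rose, by up to 0.99, 2 gained regions and 1 lost region. MAP3K14, the gene of NIK, had a region 1.72 kb upstream of its start that fell from 6.80 and 7.17 to 4.86 and 5.28 (-0.51, limma adjusted p = 0.0149) and 1 lost region, while its other start-site region changed by -0.09 (adjusted p = 0.679).

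Among the NF-κB subunit genes, NFKB2 and NFKB1 had called regions. The NFKB2 start region went from 13.4 and 13.3 to 23.2 and 21.7 (0.71, limma adjusted p = 0.00254). NFKB1 gained 4 regions in its body, the strongest 48.6 kb downstream of its start with 7.74 and 7.92, and its start region did not pass the test (0.30, adjusted p = 0.176). RELB, the partner of processed NFKB2, did not pass either (0.16, adjusted p = 0.534), nor did RELA (0.27, 0.237) or REL (-0.01, 0.955). The inhibitors of NF-κB had the highest share of regions that rose among the 19 lists, 24 of 56 retained (42.9%), with 4 that fell, and 9 of 89 gained and 1 lost. The median change of the list's retained regions was 0.36, against 0.00 over all. TNFAIP3, which encodes the ubiquitin-editing enzyme A20, had 5 gained regions, and the largest of 3 rises was at chr6:137810626-137813775, 53.4 kb upstream, from 8.73 and 7.81 to 20.8 and 21.3 (1.3, limma adjusted p = 4.19e-05). Its length under peaks was 8.11 and 7.0 kb untreated and 20.8 and 24.5 kb with TWEAK. NFKBIA, the gene of IκBα, had 5 regions that rose, its start region from 7.67 and 7.54 to 11.7 and 12.2 (0.61). TNIP3, an A20-binding inhibitor, rose by 1.66 at a region that went from 4.26 and 4.54 to 14 and 14.6. ZC3H12A, an RNase that degrades cytokine transcripts, rose by 0.98 at its start (11.9 and 11.9 to 24.8 and 23.4).

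Chemokine genes had 8 of 42 regions gained (19.0%) and 1 lost, and 9 of 26 retained regions rose and 5 fell. The CXCL cluster on chromosome 4, whose products attract neutrophils, held several. CXCL3 rose at its start from 5.41 and 5.13 to 12.3 and 11 (1.10) and 16.8 kb upstream from 7.50 and 7.63 to 17.8 and 18.3 (1.21). CXCL8 gained the region of the printed window, 18.1 kb upstream with 4.80 and 3.14, and rose 12 kb upstream from 4.64 and 5.41 to 11.5 and 11.1 (1.13, limma adjusted p = 0.000201). CXCL2 gained a region with 7.47 and 6.06. CCL5, a T cell attractant, gained 2 regions, the stronger with 6.17 and 5.66, and had no peak in either untreated list or in any Fn14 KO list. CCL20 gained a peak at its start with 3.60 and 3.08. CCL28, a mucosal chemokine, went the other way, with the list's lost region and 3 regions that fell, the largest fall 13.1 kb upstream from 4.89 and 6.28 to 3.12 and 3.95 (-0.70). A region of CXCL6 fell by 0.86 and a region of CX3CL1 by 0.49 on the log2 scale. The length under peaks at CXCL6 rose, however, from 2.5 and 2.8 kb untreated to 3.9 and 3.8 kb with TWEAK. Whether wider peaks lowered the mean fold enrichment there was not tested.

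Cytokines and their receptors had 26 of 96 retained regions that rose (27.1%) and 8 that fell, with 10 of 143 regions gained and 8 lost. CSF2, which encodes GM-CSF, gained 3 regions, the strongest with 6.61 and 7.37, and rose 11.4 kb downstream from 6.75 and 7.02 to 13.8 and 13.7 (0.95). CSF3, the gene of G-CSF, rose at its start from 4.62 and 4.41 to 8.57 and 8.78 (0.90) and lost a region 2.41 kb downstream, so that its length under peaks went from 2.51 and 2.84 kb to 1.92 and 1.70 kb. IL7R, the interleukin-7 receptor, rose at 3 regions by up to 1.20, and TSLP, an epithelial cytokine, by 1.13 near its start. LIFR, the receptor of leukaemia inhibitory factor, went the other way, with 4 lost regions and 1 that fell (-0.83).

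By nearest start site, adhesion genes gained far more regions than they lost, 21 of 196 (10.7%) against 1 (0.51%). By any start site within 50 kb, 12 of 27 had a gained region (44.4%) and 6 a lost one (22.2%), against 15% and 16.9% of all genes. Of 118 retained regions, 21 rose and 12 fell. At the start of ICAM1, an integrin ligand on inflamed cells, fold enrichment went from 3.8 and 3.66 to 9.37 and 7.61 (1.13, limma adjusted p = 0.000257), and a region 5.06 kb upstream was gained with 4.66 and 4.63. CD82, a tetraspanin, rose at a start-site region from 7.46 and 6.05 to 16.1 and 19.3 (1.35). CD47, the ligand of SIRPα, had 3 gained regions and 3 that rose, by up to 1.19, and 1 that fell. ITGAV, the αV integrin, gained 3 regions between 14 and 34 kb upstream, with values between 2.68 and 4.25.

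Counted by region, the TGF-β and BMP list was balanced in gains and losses, 21 of 420 regions each (5%). By gene, 7 of 40 had a gained region (17.5%) and 14 a lost one (35%), against 15.1% and 14.5% of all genes. Its genes had a median of 6 regions each, against 2 over all genes. Retained regions of the list fell somewhat more often than they rose, 44 (16.5%) against 33 (12.4%) of 267, with a median change of -0.06. The gains came from INHBA (9), ACVR2A, SMAD3 and LTBP1 (3 each), TGFB2, GDF6 and SMAD6. BMP4, a BMP ligand, had 3 lost regions and 6 that fell, the largest fall from 17.9 and 12.2 to 4.39 and 5.93 at chr14:53977385-53981460 (-1.58, limma adjusted p = 9.55e-05). Its length under peaks was 48.1 and 44.3 kb untreated and 25.2 and 27.2 kb with TWEAK, and 40.0 to 43.5 kb in the Fn14 KO lists. ID1 and ID3, targets of BMP signalling, fell at their start regions by 0.67 and 0.68 on the log2 scale. SMAD7, an inhibitory SMAD, had 5 regions that fell, 1 lost and 1 that rose. Matrix and mesenchymal genes moved both ways. THBS1, which encodes thrombospondin 1, had 3 lost regions, 7 that fell and 1 that rose. COL1A1, a collagen I chain, fell at its start from 9.97 and 8.47 to 6.02 and 6.62 (-0.59), while TNC, the gene of tenascin C, gained a peak at its start with 5.42 and 7.20 but also had 1 further gained region, 1 lost region and 3 that fell. Over the collagen and matrix list, 15 of 339 regions were gained and 17 lost, and 33 of 216 retained regions rose and 42 fell. Over the epithelial-mesenchymal transition list, 12 of 205 were gained and 12 lost, and 21 of 114 rose and 22 fell. By gene, 5 of 21 on that list had a gained region (23.8%) and 9 a lost one (42.9%).

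Genes of NAD synthesis and consumption had 14 of 102 regions gained (13.7%) and 6 lost (5.88%), with 10 of 50 retained regions up and 2 down. NAMPT supplied 7 of these gains and 7 of the regions that rose, and SLC12A8, a reported carrier of an NAD precursor, had 4 gained regions, 1 lost and a region that fell by 1.25 on the log2 scale. Among matrix proteases and their inhibitors, 7 of 170 regions were gained and 6 lost, and 27 of 128 retained regions rose and 13 fell. PLAUR, the urokinase receptor, rose 3.73 kb upstream of its start from 7.87 and 7.18 to 16.8 and 18.0 (1.17), and MMP9, a gelatinase, gained a region 0.224 kb upstream of its start with 4.06 and 4.78 and lost another 14.9 kb upstream. Apoptosis control had 14 of 69 retained regions that rose and 6 that fell. CFLAR, the caspase-8 inhibitor FLIP, rose by 1.03 at a region that went from 22.1 and 17.8 to 41.3 and 42.2. Among interferon and STAT regulators, 15 of 82 rose and 6 fell.

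The AP-1, small MAF and NRF2 family showed little net change, with 1 of 128 regions gained (0.781%), 3 lost (2.34%), and 13 of 94 retained regions up and 13 down. YAP and TEAD pathway genes had 9 of 204 regions gained and 9 lost, and 13 of 128 retained regions up and 17 down. Actin and filopodia genes had 20 of 290 gained and 17 lost, with 21 of 168 up and 23 down. Growth factors and receptor kinases had 19 of 371 gained and 16 lost, with 42 of 223 up and 24 down. Proliferation genes had 16 of 270 gained and 5 lost, with 37 of 178 up and 19 down, and CCND1, which encodes cyclin D1, had a region that fell by 0.66 and 1 lost region. Of 553 genes on the lists, 444 had a region at a start site. Of these, 48 had such a region that rose, 56 such a region that fell, 13 a gained one and 9 a lost one. The matching shares over all genes were not counted, so whether the lists differ from other genes at their start sites was not tested.

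**Figure D4:**
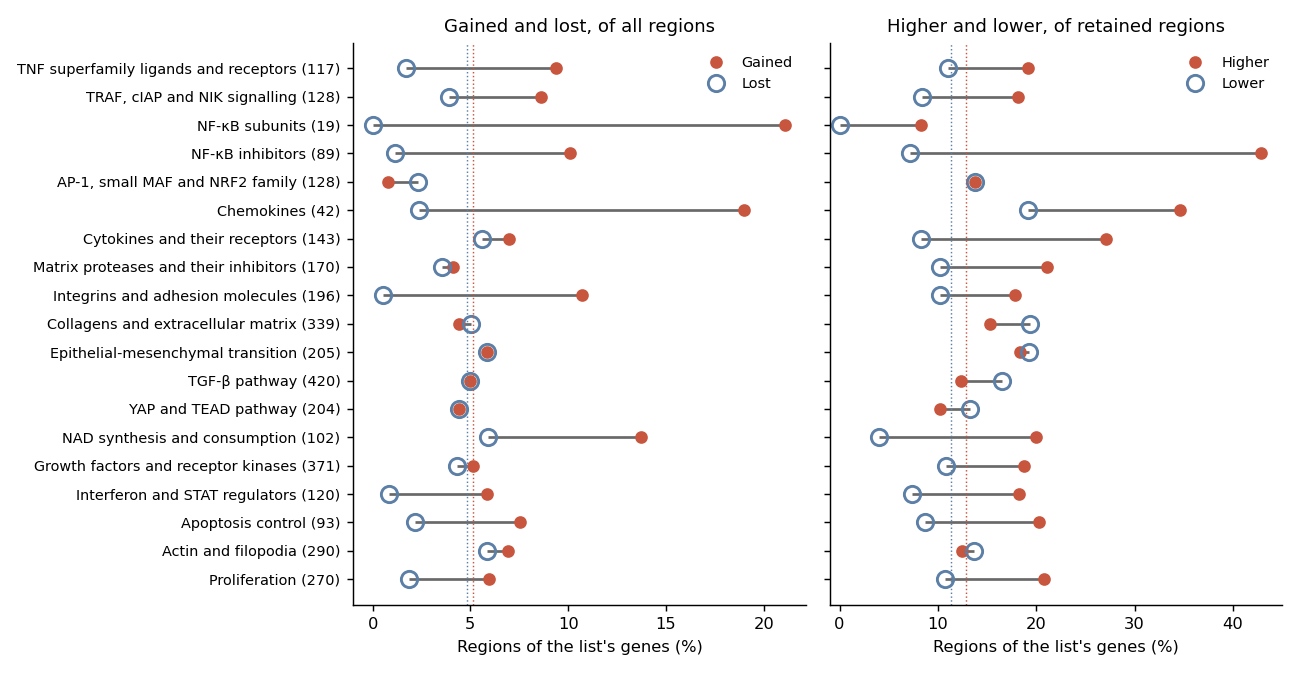
Percent of regions gained and lost (left) and percent of retained regions that rose and fell (right) for 19 gene lists, with dotted lines at the shares over all regions (5.15% gained, 4.85% lost, 12.9% up, 11.3% down). NF-κB inhibitors have 42.9% of retained regions up and 7.14% down, and chemokines have 19.0% of regions gained and 2.38% lost.

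The same regions were then read in Fn14 KO cells of the same line. The start of TNFRSF12A had a peak in all 4 Fn14 KO lists, with fold enrichment between 19.8 and 22.3, and an H3K27ac peak does not check the deletion. Within the Fn14 KO lists, the same definition found 608 gained and 480 lost of 52308 regions. At the regions gained in control cells, Fn14 KO lists held a peak at 9.68% and 10.6% untreated and 11.2% and 11.4% with TWEAK, a difference of 1.17 percentage points (exact two-sided permutation p = 0.333, the smallest possible). At the regions lost in control cells they held a peak at 78.3% and 76.3% untreated and 77.6% and 77.8% with TWEAK, a difference of 0.409 points (exact permutation p = 1). Of all members, 77.6% of gained regions had a peak in no Fn14 KO list and 59.4% of lost regions had a peak in all 4.

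Of the 35764 retained regions, 33466 had a peak in all 8 Hs578T lists and were fitted with a genotype by treatment interaction, a fit chosen after seeing the data. The interaction was called at 3612 of them (10.8%), and the TWEAK contrast within Fn14 KO at 8 (0.0239%). Of the regions that rose in control cells, 4002 could be fitted and 1886 had a called interaction, with a median change of 0.01 within Fn14 KO. Of those that fell, 4014 could be fitted and 1624 had a called interaction, with a median of -0.01 within Fn14 KO. Both sets, and the regions named next, were chosen by their change in the control lists. The same lists enter the interaction, so the choice favoured a called interaction. The TNFAIP3 region with a rise of 1.3 differed from its Fn14 KO change of -0.02 by 1.33 (limma adjusted p = 0.000927). The ICAM1 start region differed by 1.37 (adjusted p = 0.00247), the NAMPT region at chr7:106376827-106379161 by 1.09 (0.00514), the BMP4 region by -1.63 (0.00154) and the NFKB2 start region by 0.67 (0.0348). For the NFKBIA start region the interaction did not pass (0.57, limma adjusted p = 0.0559), nor did it for the ID1 (-0.71, 0.0574) and ID3 (-0.64, 0.0551) start regions.

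**Figure D5:**
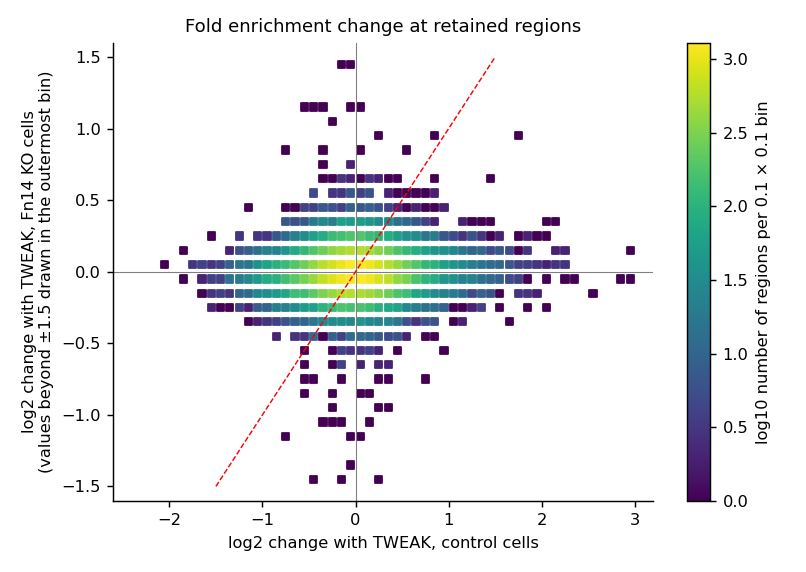
Log2 change with TWEAK at 33466 retained regions in Hs578T control cells (x) and Fn14 KO cells (y), as counts per bin, with a dashed line of equal change and values beyond the axis drawn in the outermost bin. The cloud is wide along x and narrow along y, with 3612 interaction calls and 8 calls within Fn14 KO.

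MDA-MB-231 control cells were the other set of lists that the choice of regions did not use. Regions gained in Hs578T held a peak in 5.55% and 12.8% of cases in the untreated MDA-MB-231 lists and in 65.4% and 70.2% in the TWEAK lists, a difference of 58.6 percentage points with no overlap between the groups (exact two-sided permutation p = 0.333, the smallest possible). Of the 2863, 1393 (48.7%) met the definition of gained in MDA-MB-231 as well and 6 that of lost. Regions lost in Hs578T held a peak in 50.2% and 63.2% of cases untreated and in 16.1% with TWEAK in both lists, a difference of -40.6 points (exact permutation p = 0.333), and 774 of 2691 (28.8%) were lost there too. Within MDA-MB-231 as a whole, 3155 regions were gained and 2609 lost of 51153. At the retained regions that rose in Hs578T, the median difference in MDA-MB-231 was 0.63 on the log2 scale, with the same sign at 3909 of 3977. At those that fell it was -0.59, with the same sign at 3403 of 3457. For retained regions not called in Hs578T the median was -0.03, and the difference was negative at 12909 of 23677.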

How the data were processed

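H3K27ac ChIP-seq was measured in 4 Hs578T control samples, with 4 Hs578T Fn14 KO and 4 MDA-MB-231 control samples as reference, grouped by the labels. Per the labels, the authors used Trimmomatic for trimming, Bowtie2 for alignment to hg38 and MACS2 for broad peaks per sample, and the deposited lists had blacklisted regions removed. Versions are not given in the sources used here. The deposited values used were fold enrichment, a ratio of peak signal to local background, and the −log10 q of each peak. The deposited score and −log10 p columns were not used. Depth is unknown because no reads are listed.

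Peaks were merged where they shared 1 bp with Python 3.11.15 and pandas 2.3.3. Genes were protein-coding start sites of GENCODE 44, and near meant within 2 kb. Retained regions were fitted with limma 3.58.1 in R 4.3.3 on log2 of the length-weighted mean fold enrichment, median-centred per list, with Benjamini-Hochberg adjustment at 0.05. The study compared read counts, which the peak lists do not hold. The fit was tested on simulated data. Same-numbered replicates did not deviate together (correlation 0.0017), so numbers were not treated as pairs. Named were the 12 strongest gained and lost regions, the 10 genes with most of each, list members with a gained, lost or called region, the 10 largest rises and falls, and the pathway and marker genes. Members, lists and tests were chosen with earlier results of these data known. The interaction fit, the κB alternatives and the limit on −log10 q for the Fn14 KO and MDA-MB-231 shares were chosen after seeing the data. Some genes and sequences are not reported here.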

Additional observations from a re-analysis of the deposited data

Results flagged for a closer look

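The TWEAK response of 15 of the 20 retained regions with the largest changes differed between Hs578T control and Fn14 KO cells, by a genotype by treatment interaction in limma over the 8 Hs578T lists, 2 per group, and all values below are log2 differences of the control change minus the Fn14 KO change. Among regions that rose in control cells, the difference was 2.99 at GPR107 (limma adjusted p = 5.14e-06), 2.80 at SELPLG (1.32e-05), 2.87 at TBX2 (5.14e-06), 2.67 at RFX8 (5.97e-05) and 2.35 at TNFSF10 (0.000148). Both TWEAK lists of control cells were above both untreated lists at each of these, and the change within Fn14 KO was between -0.10 and 0.13.

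Among regions that fell in control cells, the difference was -2.02 at PLEKHA7 (limma adjusted p = 7.94e-05), -1.99 at PLEKHG6 (0.000319), -1.81 at INHBB (0.000574), -1.81 at FOXL3 (0.000154) and -1.78 at SH3TC2 (0.000432). It was -1.75 at FRMD4A (0.00212), -1.71 at MAP4 (0.000321), -1.52 at EDIL3 (0.00333), -1.63 at NFATC2 (0.000648) and -1.59 at FANK1 (0.000461). The change within Fn14 KO was between -0.15 and 0.12 at these 10. The other 5 regions, at ARNT2, VNN1, ZC3H7B, IFNAR2 and IL23A, lacked a peak in at least 1 Fn14 KO list, and their difference was not tested. These regions were picked for the size of their control change, and the control lists enter the interaction.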

How the results depend on the processing

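The counts of gained and lost regions stayed within 1.5 times of the reported values under each setting that kept all lists, 2610 to 2977 gained and 2448 to 2866 lost. With a list left out they were 3560 to 4887 gained and 3255 to 5562 lost, because the remaining list of an arm then decides alone. Retained regions that rose or fell were 2627 to 4738 and 2069 to 4263 with a list left out, and 2513 and 2157 with fold enrichment times base pairs, which kept 46.0% and 40.3% of the calls. With the replicate number as a block, which the check of pairing did not call for, they were 4786 and 4315, and 99.0% of the calls of each direction were kept. Without centring, 5067 rose and 3162 fell, since the uncentred lists shift the median of all regions by 0.05 on the log2 scale. Of 506 refits of 47 named retained regions, 487 kept direction and call, 18 lost the call and 1 reversed, the NAMPT start-site region at 0.66 with fold enrichment times base pairs; the cause was not tested beyond the widening given above.

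With start sites at 1 and 5 kb, 4.33% and 14% of gained and 8.10% and 19.0% of lost regions were near one. In 1000 bp, AP-1 matches were in 57.3% of gained and 54.0% of lost regions, and κB matches in 35.1% and 9.59%. The κB share of gained regions was 29.2% with a −log10 q of 2 or more in both lists, and the stricter consensus gave 7.37% and 0.186%. With the same limit on −log10 q, the share of gained regions with a peak differed between TWEAK and untreated lists by 1.77 percentage points in Fn14 KO and 69.5 in MDA-MB-231, and that of lost regions by -50.0 points in MDA-MB-231. Small changes at single regions are limited by 2 lists per arm and by the absence of reads.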
